A study of Homo sapiens with 12 samples.

Results

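Transcripts of the ligands and receptors of the epidermal growth factor (EGF) receptor family were followed in RCC4, an established cell line from a human renal carcinoma of the clear cell type, with and without silencing of YAP and with and without erastin. The genes were HBEGF, AREG, EREG, TGFA and NRG1 (ligands) and EGFR, ERBB2 and ERBB3 (receptors), chosen by name. Earlier results of these data were known when they were chosen. Every probe set whose only gene symbol was one of these 8 was taken, which gave 23 of the 22215 probe sets tested and 7 genes. There were 3 probe sets for HBEGF, 1 for EREG, 3 for TGFA, 6 for NRG1, 6 for EGFR, 2 for ERBB2 and 2 for ERBB3. AREG was not analysed here, since no probe set carried that symbol alone in the annotation used.

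Cells were transfected with an siRNA against YAP (siYAP) or with a non-targeting control siRNA (siNT). After 2 days they received either 1 µM erastin or its vehicle DMSO for 7 hours, which gave 4 groups, named here siNT DMSO, siNT erastin, siYAP DMSO and siYAP erastin. Each group held 3 Affymetrix arrays, described as biological replicates, and all cells had gone through transfection, the controls included. YAP is a transcriptional co-activator of the Hippo pathway that works through the TEAD factors, and erastin blocks cystine import and can start ferroptosis. What limits these groups as a model is that a single cell line was used and that the number of different siRNAs against YAP was not given in the sources used here.

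Ligands of this family are made as membrane-anchored precursors and released by ADAM metalloproteases. HB-EGF (from HBEGF), amphiregulin (AREG), epiregulin (EREG) and TGF-alpha (TGFA) bind the EGF receptor, and neuregulin-1 (NRG1) binds ERBB3 and ERBB4. Ligand binding joins receptors into dimers that signal through GRB2 and SOS to RAS and ERK and through PI3-kinase to AKT. ERBB2 has no known ligand and serves as a partner, while ERBB3 has little kinase activity of its own. In proximal tubule cells, from which clear cell carcinoma is thought to arise, EGF receptor signalling is known for its part in repair after injury, and in VHL-deficient carcinoma cells TGF-alpha is known as a growth factor that the cells make for themselves.

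Promoter sequences from the RefSeq promoter table (GRCh38.p14) are shown for 3 of the 4 genes that changed with silencing. The promoters of NRG1, which also changed, and of ERBB3 were not searched. Each is the 250 bases before a transcription start, 5′ to 3′ on the gene's own strand. Capitals mark matches, on either strand, to the TEAD motif GGAATG and the AP-1 motif TGANTCA, the latter bound by FOS and JUN proteins. HBEGF is on the minus strand (chr5:140346604-140346853), as is TGFA (chr2:70553827-70554076), shown for the outer of its 2 listed starts. The EGFR window is the inner of its 2 listed starts, on the plus strand (chr7:55109589-55109838). It is the EGFR window with matches, and the outer one (chr7:55018767-55019016), which had none, is not shown.
HBEGF: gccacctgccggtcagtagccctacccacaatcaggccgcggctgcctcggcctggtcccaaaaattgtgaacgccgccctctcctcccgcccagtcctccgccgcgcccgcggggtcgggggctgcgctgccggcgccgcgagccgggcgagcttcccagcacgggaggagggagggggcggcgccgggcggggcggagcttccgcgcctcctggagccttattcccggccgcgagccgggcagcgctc
TGFA: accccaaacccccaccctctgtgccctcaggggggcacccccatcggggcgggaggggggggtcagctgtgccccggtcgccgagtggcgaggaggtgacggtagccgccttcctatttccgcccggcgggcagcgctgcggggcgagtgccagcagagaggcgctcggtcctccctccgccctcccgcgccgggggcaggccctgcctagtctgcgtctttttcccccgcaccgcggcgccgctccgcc
EGFR: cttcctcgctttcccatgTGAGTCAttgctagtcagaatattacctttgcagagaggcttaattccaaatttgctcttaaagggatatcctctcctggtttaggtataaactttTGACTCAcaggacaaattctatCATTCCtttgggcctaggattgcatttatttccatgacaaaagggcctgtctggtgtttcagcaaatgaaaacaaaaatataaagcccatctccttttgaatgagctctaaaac

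Neither motif was found in the HBEGF window or in either TGFA window. The inner EGFR window held 1 TEAD match, 114 bases before the start, and 2 AP-1 matches, 136 and 232 bases before it. The outer EGFR window held neither. EREG had 1 TEAD match 175 bases before its start, ERBB2 had 1 AP-1 match 222 bases before its start, and AREG had neither. In all, 8 windows from 6 of the 8 genes were searched, of which 2 held the TEAD motif and 2 the AP-1 motif. Over all 35116 windows of this length in the table, 11.9% held the TEAD motif and 6.57% the AP-1 motif. No match overlapped another. A match is a description of letters, and its absence says only that the letters are not in this window.

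Silencing was read first. YAP1 stood between 8.47 and 8.65 on the 6 siNT arrays, on the log2 scale of the deposited signal, which is used for every level here. On the siYAP arrays it stood at 4.18, 4.88 and 4.81 with DMSO and at 4.68, 6.21 and 4.90 with erastin, so replicate 2 of siYAP erastin kept more YAP1 transcript than the others. Called changes of the ligands and receptors that rest on that array are given with and without it. Markers of kidney tubule and clear cell carcinoma had median levels from 10.06 to 10.50 in the 4 groups (9 of 10 markers measured), with PAX2 or EPCAM the lowest. With silencing 4 of these 9 markers rose and 2 fell in each comparison. EPCAM rose by 1.04 in DMSO and 1.02 under erastin and PAX2 by 0.37 and 0.65, while KRT18 fell by 0.35 and 0.45. The summed level was 94.1 to 95.1 on siNT arrays and 95.6 to 96.0 on siYAP arrays. Those of endothelial cells summed to 21.5 to 23.0, of fibroblasts to 23.5 to 25.5 and of immune cells to 19.8 to 21.5 over 5 markers each. The lowest of each list, CDH5 (3.24 to 3.36), LUM (2.23 to 2.44) and LYZ (2.63 to 2.67), were at the bottom of the scale. The highest were TEK (5.83 to 5.91), COL1A1 (7.45 to 7.60) and CD3D (5.15 to 5.30). Of these, COL1A1 lay above the array medians of 6.49 to 6.52. The difference between 3′ and 5′ probe sets of ACTB, a sign of RNA or labelling quality, was 3.54 ± 0.18 (SD, n = 3) in siYAP erastin, against 2.68 ± 0.28, 2.26 ± 0.69 and 2.59 ± 0.95 in siNT DMSO, siNT erastin and siYAP DMSO. For GAPDH it was 0.17 ± 0.04 in siYAP erastin and 0.15 to 0.22 in the other groups. The part of these differences in the results was not tested.

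YAP silencing raised HBEGF and lowered TGFA, with and without erastin. It raised the brightest probe sets of NRG1 and EGFR by smaller amounts, and no probe set of EREG, ERBB2 or ERBB3 passed the test. In DMSO 7 of 23 probe sets (30.4%), from 4 genes, passed an adjusted p of 0.05 in limma, 4 higher and 3 lower. Under erastin 8 of 23 (34.8%), from the same 4 genes, passed, 5 higher and 3 lower. These shares lie near the background, the share of all probe sets that passed. In DMSO 27.4% of all probe sets passed (14.4% higher, 12.9% lower), and under erastin 28.9% passed (16% higher, 12.9% lower). The median change of the 23 was 0.05 in DMSO, against 0.02 for all probe sets, and 0.03 under erastin, against 0.00. Arrays of the groups did not overlap for 11 of the 23 (47.8%) in each comparison, where 40.8% of all probe sets did not overlap in DMSO and 40.1% under erastin.

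Erastin lowered HBEGF, and the other members showed little change with it. In siNT cells 2 of the 23 probe sets passed, both of HBEGF and both lower. Over all probe sets 66 passed in siNT cells (0.297%), 0.221% higher and 0.0765%, or 17 probe sets, lower. In siYAP cells 2 of the 23 passed, 1 of HBEGF, lower, and 1 of NRG1, higher. Over all probe sets 38 passed in siYAP cells (0.171%), 0.162% higher and 0.009%, or 2 probe sets, lower. The erastin and silencing comparisons share arrays with each other, while the comparisons of silencing in DMSO and under erastin share none.

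HB-EGF is a ligand of EGFR and ERBB4 whose precursor is also the diphtheria toxin receptor. Probe set 203821_at stood at 9.27, 9.25 and 9.22 in siNT DMSO and at 9.99, 10.05 and 10.02 in siYAP DMSO. Under erastin it stood at 8.70, 8.74 and 8.90 in siNT and at 9.71, 9.62 and 9.69 in siYAP. Every siYAP array lay above every siNT array, and within each siRNA every erastin array lay below every DMSO array, so the 4 groups followed each other without overlap: siYAP DMSO, siYAP erastin, siNT DMSO, siNT erastin. Silencing raised the level by 0.77 (SE 0.06) on the log2 scale in DMSO, or 1.71-fold (limma adjusted p = 1.29e-06). Under erastin it was raised by 0.89 (SE 0.06), or 1.86-fold (limma adjusted p = 4.81e-07). Bulk RNA was measured, so more transcript in each cell and more cells with a high level cannot be told apart.

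A second HBEGF probe set, 38037_at, stood at 9.10, 9.17 and 9.14 in siNT DMSO and at 9.92, 9.91 and 9.96 in siYAP DMSO. Under erastin it stood at 8.68, 8.65 and 8.69 in siNT and at 9.53, 9.61 and 9.54 in siYAP. The 4 groups had the same order, again with no overlap between neighbours. Silencing raised it 1.73-fold in DMSO (limma adjusted p = 2.34e-07) and 1.84-fold under erastin (limma adjusted p = 1.33e-07). Without the siYAP array that kept more YAP1, the changes under erastin were 0.92 for 203821_at and 0.86 for 38037_at, and both passed.

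With erastin HBEGF fell by 0.46 (SE 0.06) in siNT cells on 203821_at, or 1.38-fold (limma adjusted p = 0.00585), and by 0.46 (SE 0.05) on 38037_at (limma adjusted p = 0.00135). In siYAP cells it fell by 0.37 (SE 0.05), or 1.29-fold, on 38037_at (limma adjusted p = 0.00782). On 203821_at the change in siYAP cells was -0.35 (SE 0.06), which did not pass (limma adjusted p = 0.058). Without the siYAP array that kept more YAP1 it was -0.32 (adjusted p = 0.294). The fall in siYAP cells on 38037_at was not called without siYAP DMSO replicate 3 (-0.36, adjusted p = 0.0521), siYAP erastin replicate 1 (-0.36, adjusted p = 0.0599) or siYAP erastin replicate 3 (adjusted p = 0.0674), and without siYAP erastin replicate 2 it was -0.40 (adjusted p = 0.0307). When only the 6 arrays of a comparison were fitted, none of these erastin calls held (adjusted p = 0.159 and 0.1 in siNT, 0.0679 in siYAP). The erastin response did not pass as different between the siRNAs: the interaction was 0.12 (95% confidence interval -0.07 to 0.31) on 203821_at and 0.09 (-0.07 to 0.24) on 38037_at.

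The third HBEGF probe set, 222076_at, lay between 3.69 and 4.33 on all 12 arrays, among the dimmest 30% of probe sets (mean below 4.90). Its only call was a rise of 0.33 (SE 0.11) with silencing under erastin (limma adjusted p = 0.0454), where the arrays of the groups overlapped, and the call was lost in 11 of 18 alternatives. Without the array that kept more YAP1 the rise was 0.42 (adjusted p = 0.0223). Fold changes of such dim probe sets are compressed.

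**Figure D1:**
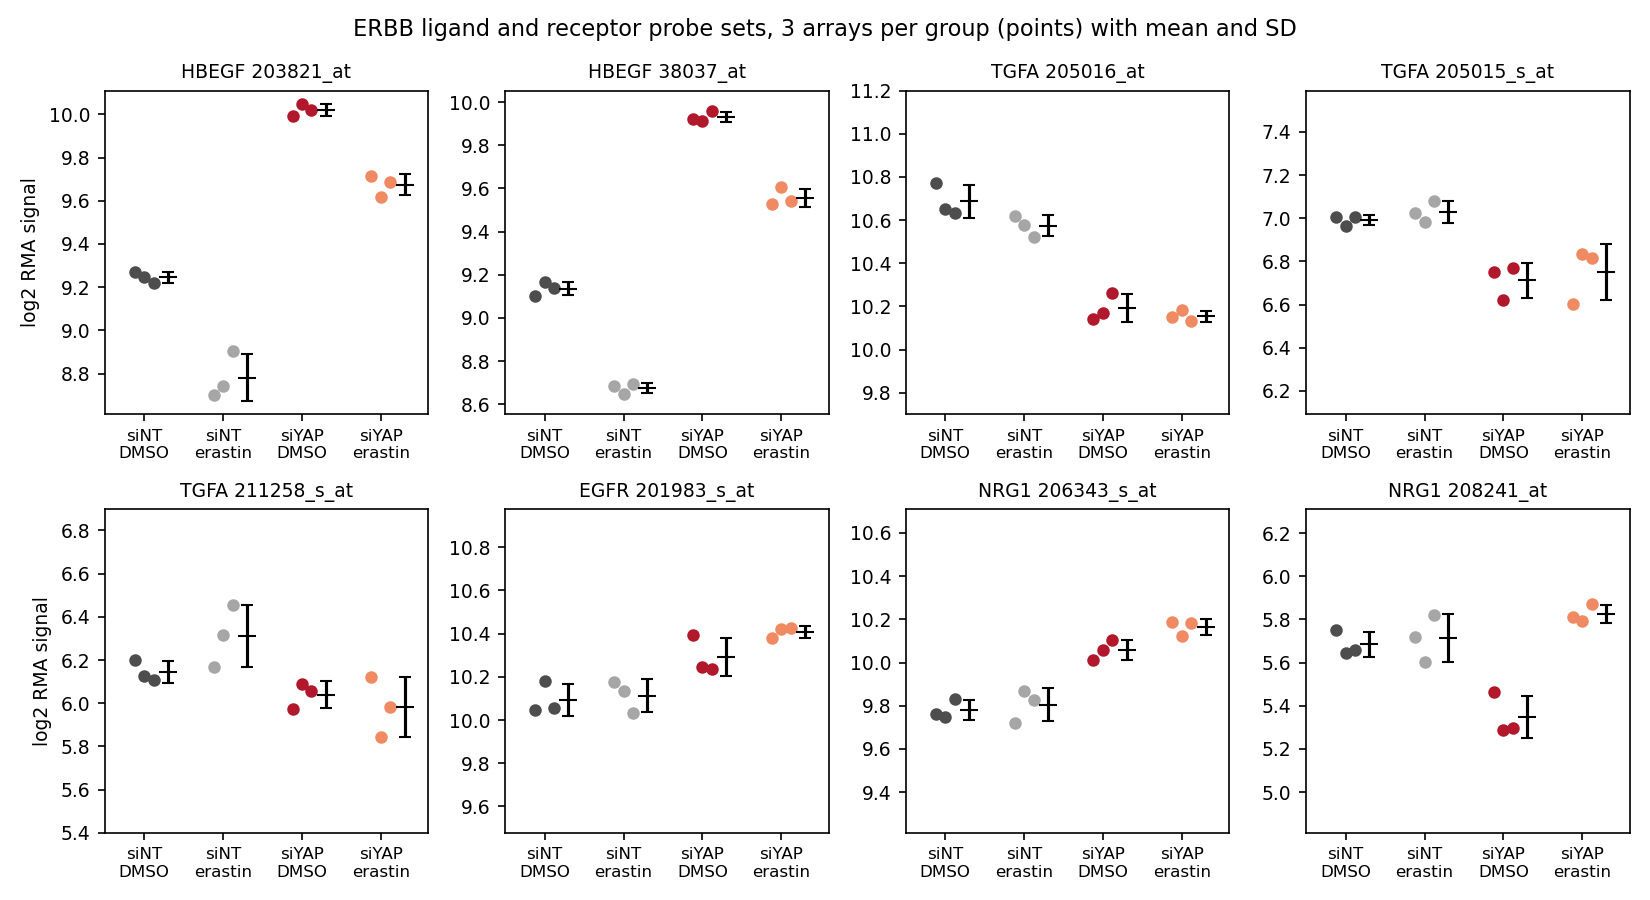
Levels of 8 probe sets of HBEGF, TGFA, NRG1 and EGFR on the log2 scale (vertical axis) in the 4 groups (horizontal axis); points are the 3 arrays of a group and bars the mean with its SD; the probe sets shown are those called in any comparison and not dim. Both HBEGF panels show 4 separate groups, siYAP above siNT and erastin below DMSO, the siYAP arrays of TGFA 205016_at lie below all siNT arrays, and NRG1 208241_at is lowest in siYAP DMSO.

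TGF-alpha, a ligand of EGFR, moved the other way with silencing. Probe set 205016_at stood at 10.77, 10.65 and 10.63 in siNT DMSO and at 10.14, 10.17 and 10.26 in siYAP DMSO. Under erastin it stood at 10.62, 10.58 and 10.52 in siNT and at 10.15, 10.18 and 10.13 in siYAP. All 6 siYAP arrays lay below all 6 siNT arrays, and the 2 siYAP groups overlapped each other. Silencing lowered it 1.41-fold in DMSO, a fall by 0.49 (SE 0.06; limma adjusted p = 4.02e-05), and 1.34-fold under erastin, a fall by 0.42 (SE 0.06; limma adjusted p = 0.000159). Its change with erastin was -0.11 in siNT (95% confidence interval -0.24 to 0.02) and -0.04 in siYAP (-0.17 to 0.09), and neither passed. Without the siYAP array that kept more YAP1, the change with silencing under erastin was -0.43 and passed.

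The other TGFA probe sets went the same way. Probe set 205015_s_at was 7.01, 6.97 and 7.00 in siNT DMSO, 6.75, 6.62 and 6.77 in siYAP DMSO, 7.02, 6.98 and 7.08 in siNT erastin and 6.60, 6.83 and 6.81 in siYAP erastin. It fell by 0.28 (SE 0.07) in both silencing comparisons (limma adjusted p = 0.00986 and 0.00936), with no overlap between siYAP and siNT arrays, and under erastin the change was -0.32 without the array that kept more YAP1, which also passed. Probe set 211258_s_at was 6.20, 6.13 and 6.11 in siNT and 5.97, 6.09 and 6.06 in siYAP DMSO, and 6.17, 6.32 and 6.45 in siNT and 6.12, 5.84 and 5.98 in siYAP erastin. It differed by -0.11 in DMSO (limma adjusted p = 0.433) and fell by 0.33 under erastin (limma adjusted p = 0.0105). That fall was -0.26 without the siYAP array that kept more YAP1 and was then not called (adjusted p = 0.0529). The test of the difference between both silencing changes gave -0.22 (adjusted p = 0.604).

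Epiregulin, a ligand of EGFR and ERBB4, had 1 probe set in the annotation. EREG 205767_at lay between 2.30 and 2.56 on all 12 arrays, at the bottom of the scale and below the lowest endothelial, fibroblast and immune markers except LUM. Its changes were 0.08 and 0.03 with silencing and -0.04 and -0.10 with erastin, with adjusted p of 0.427 or more in limma. At such a level a fall could hardly be seen, and a change in transcript would be understated. The confidence interval of the change with silencing was -0.06 to 0.22 in DMSO and -0.11 to 0.17 under erastin. Rises of this signal beyond those limits lie outside the intervals.

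Neuregulin-1 has many isoforms that differ by start site and exon use, and its 6 probe sets did not move as one. The brightest, 206343_s_at, was 9.76, 9.75 and 9.83 in siNT DMSO, 10.01, 10.06 and 10.10 in siYAP DMSO, 9.72, 9.87 and 9.83 in siNT erastin and 10.19, 10.12 and 10.19 in siYAP erastin. All siYAP arrays lay above all siNT arrays, and the siYAP arrays with erastin lay above those with DMSO. Silencing raised it by 0.28 (SE 0.06) in DMSO, or 1.21-fold (limma adjusted p = 0.00282), and by 0.36 (SE 0.06) under erastin, or 1.28-fold (limma adjusted p = 0.000431). Its change with erastin was 0.03 in siNT and 0.11 in siYAP, and neither passed. Without the siYAP array that kept more YAP1, the rise under erastin was 0.38 and passed.

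A dimmer NRG1 probe set, 208241_at, showed another pattern. It was 5.75, 5.64 and 5.66 in siNT DMSO, 5.46, 5.29 and 5.30 in siYAP DMSO, 5.72, 5.60 and 5.82 in siNT erastin and 5.81, 5.79 and 5.87 in siYAP erastin. The siYAP arrays with DMSO were the lowest and did not overlap with any other group, while siNT erastin overlapped with both siNT DMSO and siYAP erastin. Silencing lowered it by a log2 change of -0.34 in DMSO (SE 0.07; limma adjusted p = 0.0031) and changed it by 0.11 under erastin (limma adjusted p = 0.292). Erastin raised it by 0.48 (SE 0.07), or 1.39-fold, in siYAP cells (limma adjusted p = 0.0151), and its change in siNT cells was 0.03 (limma adjusted p = 0.955). The difference between both erastin changes was 0.45 (SE 0.10), with an unadjusted p of 0.000741 and a limma adjusted p of 0.399, so it did not pass. The rise in siYAP cells was not called without siYAP DMSO replicate 2 (0.45, adjusted p = 0.106) or 3 (0.45, adjusted p = 0.1), nor without siYAP erastin replicate 1 (0.48, adjusted p = 0.0684), 2 (0.49, adjusted p = 0.0691) or 3, nor with only the 6 arrays compared (adjusted p = 0.0679). The siYAP erastin group is also the one with the largest ACTB 3′ to 5′ difference, whose part in this value was not tested.

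The other 4 NRG1 probe sets, 206237_s_at, 208230_s_at, 208232_x_at and 208231_at, had no call. Their changes with silencing lay between -0.10 and 0.23 in DMSO and between -0.21 and 0.17 under erastin. Probe set 208232_x_at, whose suffix marks probes that can bind more than 1 transcript, was called higher in DMSO (0.34, adjusted p = 0.00735) without siNT DMSO replicate 3. Probe set 206237_s_at was called higher under erastin (0.23, adjusted p = 0.0363) without siYAP erastin replicate 1. The mean of all 6 probe sets differed by 0.02 (adjusted p = 0.836) and 0.06 (adjusted p = 0.398) with silencing, so the rise of 206343_s_at is not shown for the gene as a whole.

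EGFR, the receptor of HB-EGF, TGF-alpha and epiregulin, rose on 1 of its 6 probe sets. Probe set 201983_s_at was 10.05, 10.18 and 10.06 in siNT DMSO and 10.39, 10.25 and 10.24 in siYAP DMSO. Under erastin it was 10.18, 10.13 and 10.03 in siNT and 10.38, 10.42 and 10.42 in siYAP. The siYAP arrays lay above the siNT arrays with either treatment, by narrow gaps in DMSO. Silencing raised it by 0.29 (SE 0.07) under erastin, or 1.23-fold (limma adjusted p = 0.00415), and this call held in all 20 alternatives, among them the fit without the array that kept more YAP1 (0.29, adjusted p = 0.0173). In DMSO the rise was 0.20 (SE 0.07), or 1.15-fold (limma adjusted p = 0.0401), and this call was lost in 9 of 20 alternatives. It was lost without siNT DMSO replicate 1 (0.17, adjusted p = 0.133) or 3 (0.18, adjusted p = 0.106), without siYAP DMSO replicate 1 (0.15, adjusted p = 0.167) or 2 (0.22, adjusted p = 0.0524), and without any 1 of the siYAP arrays with erastin (adjusted p = 0.054 to 0.0568).

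The next brightest EGFR probe set, 201984_s_at, was 8.88, 8.96 and 8.84 in siNT DMSO, 8.94, 8.97 and 8.92 in siYAP DMSO, 8.91, 8.96 and 9.02 in siNT erastin and 9.01, 8.93 and 8.87 in siYAP erastin. All groups overlapped. Its change with silencing was 0.05 in DMSO (95% confidence interval -0.08 to 0.18) and -0.03 under erastin (-0.16 to 0.10), so changes above 0.18 in size lie outside both intervals. The 4 other EGFR probe sets (210984_x_at, 211607_x_at, 211550_at and 211551_at) lay between 4.92 and 6.60, and their changes with silencing lay between -0.10 and 0.18, with no call. The mean of all 6 differed by 0.11 in DMSO (adjusted p = 0.153) and 0.05 under erastin (adjusted p = 0.544).

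ERBB2, the partner receptor, was measured by 216836_s_at between 7.93 and 8.08 on all 12 arrays. Its change with silencing was 0.00 in DMSO (95% confidence interval -0.13 to 0.13) and 0.08 under erastin (-0.05 to 0.20), and with erastin it was -0.03 in siNT and 0.05 in siYAP. Its arrays in siYAP erastin lay just above those in siNT erastin, without a call (limma adjusted p = 0.414). The other ERBB2 probe set, 210930_s_at, was dim, at 3.57 to 4.35.

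ERBB3, the receptor of neuregulin-1, was dim on both its probe sets, with 215638_at at 3.70 to 4.05 and 202454_s_at at 3.15 to 3.69. Neither was called in any comparison. On 202454_s_at the arrays did not overlap between siYAP and siNT in either comparison, but with opposite signs, 0.20 in DMSO (limma adjusted p = 0.132) and -0.19 under erastin (limma adjusted p = 0.147). The difference between these was -0.40 (unadjusted p = 0.00968, limma adjusted p = 0.505).

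For the interaction, limma called 0 of the 23 probe sets and 0 of all 22215 (0%). At an unadjusted p under 0.05 there were 3 of the 23, beside 2005 of all probe sets (9.03%). These were NRG1 208241_at, NRG1 208232_x_at and the dim ERBB3 202454_s_at. Other variance models and weights called between 0 and 7 of all probe sets and 0 of the 23.

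**Figure D2:**
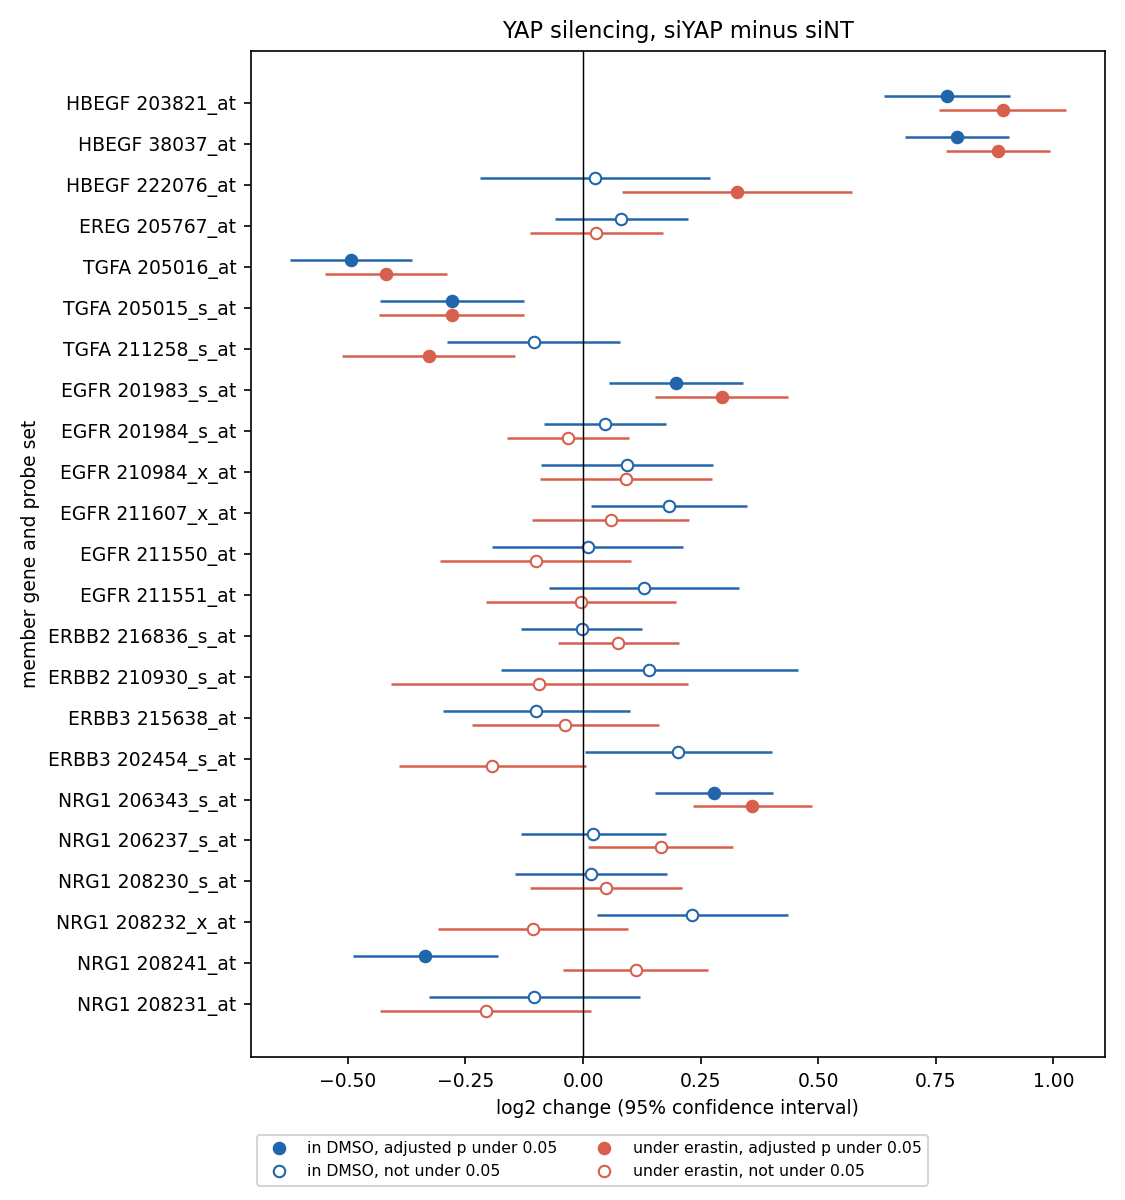
Change with YAP silencing for each of the 23 probe sets (vertical axis), as siYAP minus siNT on the log2 scale (horizontal axis) with the 95% confidence interval, in DMSO (blue) and under erastin (red); filled points passed an adjusted p of 0.05. HBEGF 203821_at and 38037_at lie farthest to the right, at 0.77 to 0.89, and TGFA 205016_at farthest to the left, at -0.49 and -0.42.

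**Figure D3:**
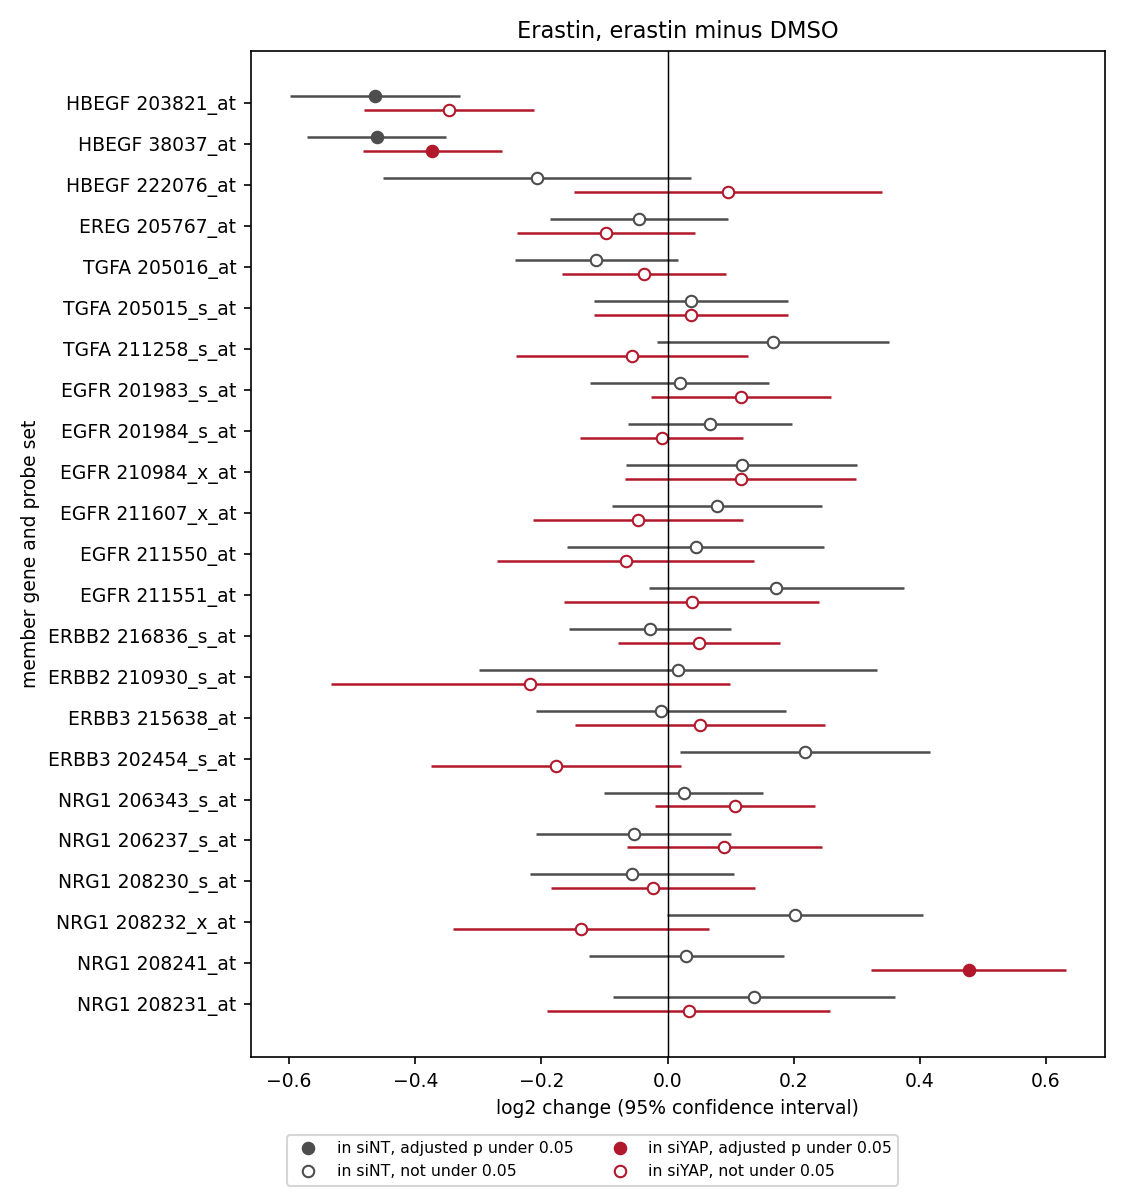
Change with erastin for the same 23 probe sets (vertical axis), as erastin minus DMSO on the log2 scale (horizontal axis) with the 95% confidence interval, in siNT cells (grey) and siYAP cells (red); filled points passed an adjusted p of 0.05. Apart from both bright HBEGF probe sets (-0.35 to -0.46) and NRG1 208241_at in siYAP cells (0.48), no change exceeds 0.22 in size.

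The genes whose pattern over the 12 arrays was most like that of each member were found by Pearson correlation with its brightest probe set, as a description over arrays that share the silencing. For HBEGF they were TM2D3 (r = 0.983), PRP4K (r = 0.982) and DNAJB1 (r = 0.979), which encodes a heat shock co-chaperone. DNAJB1 changed by 0.28 and 0.36 with silencing and by -0.26 and -0.18 with erastin. For TGFA they were PLAU, the urokinase gene (r = 0.997), TRIP13 (r = 0.989) and CDC20, an activator of the anaphase-promoting complex (r = 0.988). PLAU changed by -0.65 and -0.55 with silencing. For NRG1 they were GABPB1 (r = 0.979), SCG5 (r = 0.974) and B9D1 (r = 0.974), and for EGFR they were EXT1 (r = 0.968), TLE1 (r = 0.96) and DIP2C (r = 0.96). For EREG, ERBB2 and ERBB3, which had no call in any comparison, the best values were lower, with LCP2 (r = 0.87), EXOG (r = 0.886) and NTM (r = 0.917).

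Around the ligands and receptors, 6 lists of pathway genes were counted with 1 probe set per gene, the brightest. Of their 87 measured genes limma called 41 with silencing in DMSO and 38 under erastin. Over all 11963 genes counted this way 31.6% passed in DMSO (17% higher, 14.6% lower) and 33% under erastin (19% higher, 14% lower). Without the siYAP erastin array that kept more YAP1, limma called 36 of the 87 in DMSO and 33 under erastin. The count thus fell also in DMSO, a comparison that does not hold that array. The median change of all genes was 0.02 in DMSO and 0.01 under erastin.

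Of 4 further ligands and receptors of the family (EGF, BTC, NRG2 and ERBB4), only NRG2, another neuregulin, was called, higher by 0.41 in DMSO (limma adjusted p = 0.0279) and 0.37 under erastin (limma adjusted p = 0.046). It was dim, from 3.94 to 4.36 in group means, and the call was lost when single arrays were left out. Its other probe set rose by 0.33 in DMSO (limma adjusted p = 0.0338) and was not called under erastin (0.00, adjusted p = 0.997). Among 13 genes of ligand shedding, 3 rose and 2 fell in DMSO and 4 rose and 2 fell under erastin, with list medians of -0.07 and -0.08. ADAM17, the main sheddase of TGF-alpha, amphiregulin and HB-EGF, fell by 0.66 (SE 0.07; limma adjusted p = 1.30e-05) and by 0.54 (SE 0.07; limma adjusted p = 7.18e-05), and its 2 other probe sets fell as well, except 1 of them in DMSO (-0.46, adjusted p = 0.106). ADAM10, another sheddase, fell by 0.18 (adjusted p = 0.0433) and 0.26 (adjusted p = 0.00524). ADAM19 rose by 0.47 and 0.67 on 1 of its 2 probe sets, and TIMP1, an inhibitor of metalloproteases, rose by 0.27 and 0.42. CD9, a tetraspanin that binds the HB-EGF precursor, rose by 0.26 and 0.29.

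Of 24 adaptors and kinases, 6 rose and 5 fell in DMSO and 8 rose and 4 fell under erastin (list medians 0.11 and 0.06). GRB2, the adaptor that docks on the activated receptor, rose from 8.27 to 9.21 in DMSO, a change of 0.94 (SE 0.07; limma adjusted p = 7.64e-07), and by 1.01 under erastin. PIK3CB, the beta catalytic subunit of PI3-kinase, fell from 10.26 to 9.11 in DMSO on its brightest probe set. This was a change of -1.15 (SE 0.06, limma adjusted p = 9e-08), and under erastin the probe set fell by 1.10. The other PIK3CB probe set fell less, by 0.60 in DMSO (limma adjusted p = 0.00914) and 0.58 under erastin (limma adjusted p = 0.0109). SOS1 and SOS2, the exchange factors that GRB2 brings to RAS, differed in direction: SOS1 fell by 0.70 and 0.45 and SOS2 rose by 0.85 and 0.70, each on a single probe set (of 2 and of 5). NCK1, another adaptor, rose by 0.56 in DMSO and 0.48 under erastin, where its other probe set was not called (0.21, adjusted p = 0.153).

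Of 14 negative regulators, 4 rose and 1 fell in DMSO and 3 rose and 1 fell under erastin (list medians 0.11 and 0.04). SPRY2, a Sprouty inhibitor of RAS to ERK signalling, rose by 1.25 and 1.29, the largest rise on these lists (SE 0.07; limma adjusted p = 8.57e-08 and 7.6e-08). SPRY1 rose by 0.61 in DMSO and differed by 0.25 under erastin (adjusted p = 0.126). SPRED2 rose by 0.32 in DMSO on 1 of 3 probe sets and differed by 0.19 under erastin (adjusted p = 0.113). PTPN1, a phosphatase that acts on EGFR, rose by 0.30 and 0.37 on 1 of 3 probe sets. SOCS5 fell by 0.57 and 0.49 on all 3 probe sets. PTPN2 rose by 0.22 under erastin on its brightest probe set, while another fell by 0.60.

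Of 17 genes that respond to ERK signalling, 9 rose and 3 fell in DMSO and 8 rose and 2 fell under erastin, with list medians of 0.21 and 0.12. Beside SPRY2, EPHA4 rose by 0.74 and 0.82, DUSP4, an ERK phosphatase, by 0.61 and 0.69, the transcription factor gene EGR1 by 0.69 and 0.34, and FOSL1 by 0.26 and 0.39. The other EGR1 probe set rose in DMSO and was not called under erastin (0.20, adjusted p = 0.246). The receptor gene EPHA2 fell by 0.43 and 0.39, the cyclin D1 gene CCND1 by 0.32 and 0.28, and DUSP6 by 0.29 in DMSO, with a change of -0.25 under erastin (adjusted p = 0.0788). Of 17 genes of receptor endocytosis and recycling, 6 rose and 2 fell in DMSO and 4 rose and 2 fell under erastin (list medians 0.08 and -0.04). TSG101, which sorts ubiquitinated receptors toward the lysosome, fell by 0.83 and 0.80, and STAM, which acts in the same sorting path, rose by 0.63 and 0.61. STAMBP rose by 0.38 and 0.27, and RAB11A, a GTPase of recycling endosomes, by 0.20 and 0.34. RAB5A, of early endosomes, rose by 0.32 in both comparisons on 1 of its 2 probe sets.

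With erastin, limma called 2 of the 87 genes in siNT cells, where 0.435% of all genes passed, and 0 in siYAP cells, where 0.234% passed. At an unadjusted p under 0.05 there were 9 (10.3%, against 9.88% of all genes) and 13 (14.9%, against 9.54%). EGR1 rose by 0.47 in siNT cells (SE 0.05; limma adjusted p = 0.002). PLAUR, the urokinase receptor gene, fell by 0.46 (SE 0.08; limma adjusted p = 0.0268), and that call was lost in most fits with an array left out.

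**Figure D4:**
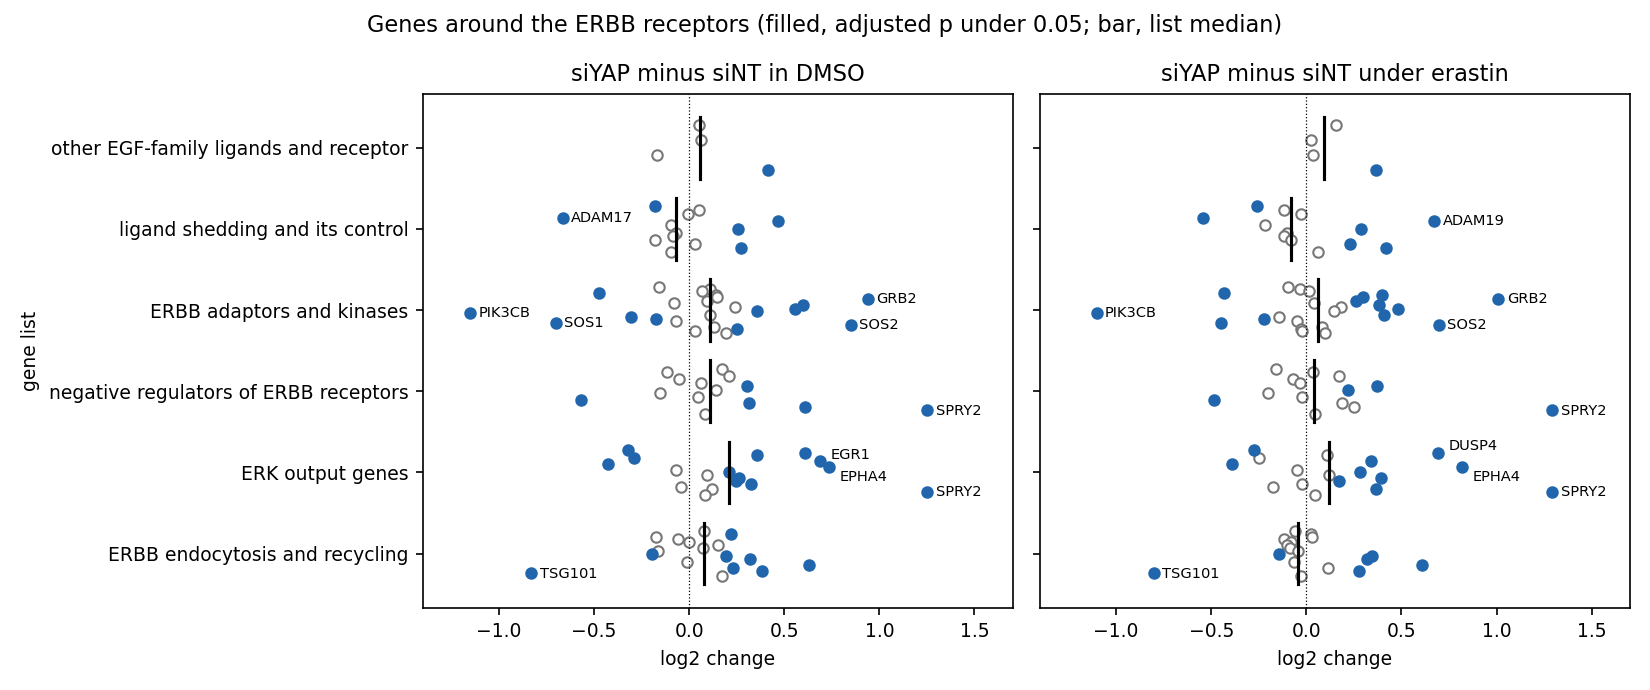
Change with silencing on the log2 scale (horizontal axis) of each gene of the 6 lists (vertical axis), in DMSO (left) and under erastin (right); filled points passed an adjusted p of 0.05 and the bar is the list median. GRB2 (0.94 and 1.01) and SPRY2 (1.25 and 1.29) lie far to the right and PIK3CB (-1.15 and -1.10) and TSG101 (-0.83 and -0.80) far to the left, while most other genes lie within 0.5 of 0.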

How the data were processed

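RNA of 12 RCC4 cultures was measured on Affymetrix arrays. Per the submitters' processing notes, the authors used Affymetrix Expression Console and RMA, which corrects background, gives all arrays the same signal distribution and combines probes into probe sets. The deposited log2 values ran from 2.02 upward, with array medians of 6.49 to 6.52. This scaling hides any change in the amount of RNA a cell holds. Neither the array type nor a scan date is given in the sources used here, so batches could not be tested. With 3 arrays per group, a change had a median standard error of 0.08.

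Of 22277 probe sets 62 array controls were left out. A platform annotation gave 1 symbol to 19065 probe sets, several to 1043 and none to 2107. The 4 group means were estimated from all 12 arrays in limma 3.58.1 (R 4.3.3; 8 residual and 4.27 prior degrees of freedom), with Benjamini-Hochberg adjustment over all 22215 probe sets in each of 5 comparisons. All adjusted p-values are limma's, two-sided. Lists were counted with each gene's brightest probe set (11963 genes) out of the same fit. The fitting code was also run on simulated arrays with known changes in a small part of the probe sets. That run does not test the changes reported here.

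The members, lists and tests were chosen with earlier results of these data known. Named genes were all member probe sets, YAP1, up to 4 called genes of each list with the largest change per comparison, and the 3 genes most like each member. ADAM10, EPHA2, CCND1, DUSP6, EPCAM, PAX2 and KRT18 were named after their values were seen. How separately the replicates were grown is not stated, so the p-values reflect the spread of these arrays, which may be partly technical. No pairing was used, since the labels do not say that a replicate number is a shared culture or day. Deviations from the group means were also correlated between arrays of different groups. The correlations were -0.42 to 0.17 for arrays with the same replicate number (3 of 18 pairs over 0.1). For arrays with different numbers they were -0.23 to 0.34. Alternatives changed the arrays fitted (only the 6 compared, or each array left out), the model (replicate block, array weights, trended and robust variances), the scaling (median centring, quantile normalization), the unit (1 probe set per gene, or their mean), the filter (without the dimmest 30%) and the threshold (a 2-fold minimum, or the submitters' zero transformation, with all 3 arrays beyond 1 log2 unit of the control mean).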

Additional observations from a re-analysis of the deposited data

How the results depend on the processing

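No called change of a member reversed its sign under any alternative run. The counts of called member probe sets were 7, 8, 2, 2 and 0 for silencing in DMSO, silencing under erastin, erastin in siNT, erastin in siYAP and the interaction. Leaving out each array in turn gave 6 to 7, 7 to 8, 2, 0 to 3 and 0. Fitting only the 6 arrays compared gave 6 and 7 with silencing and 0 and 0 with erastin. With 1 probe set per gene there were 4, 4, 1 and 1 called genes of 7. In the reported fit 31.6%, 33%, 0.435% and 0.234% of all 11963 genes with 1 probe set each passed. With each gene's probe sets averaged there were 2 called members (HBEGF and TGFA), 2, 1 (HBEGF) and 0. A 2-fold minimum left 0 in every comparison, and the zero transformation left 0 with silencing in DMSO and 0 under erastin, since no member changed by 1 log2 unit. With the replicate block the counts were 6, 7, 2, 2 and 0: it ended the calls of EGFR 201983_s_at in DMSO (adjusted p = 0.0561) and HBEGF 222076_at under erastin (adjusted p = 0.0774), and changed no other call of a member. HBEGF 203821_at with erastin in siYAP cells, not called in the reported fit, was called after median centring (-0.37, adjusted p = 0.0368), quantile normalization (-0.34, adjusted p = 0.0325), removal of dim probe sets (adjusted p = 0.0245), with 1 probe set per gene (adjusted p = 0.0287), the trended and robust model (adjusted p = 0.00657), array weights (adjusted p = 0.0101) and without siNT erastin replicate 3 (adjusted p = 0.017). It was not called without any other single array (adjusted p = 0.0642 to 0.294, the highest without siYAP erastin replicate 2). NRG1 208232_x_at was called higher with silencing in DMSO under array weights (0.29, adjusted p = 0.00986). Over all probe sets, silencing calls in DMSO numbered 6079 (27.4%), 5080 to 6588 with an array left out and 5704 to 7300 over the other fits. Under erastin they numbered 6415 (28.9%), 5097 to 6471 and 5522 to 7708. Erastin calls over all probe sets in siNT cells numbered 66, 34 to 50 with an array left out, 33 with the replicate block and 10 to 186 over the other fits. In siYAP cells they numbered 38, 19 to 49 and 26 to 88. Dim probe sets (HBEGF 222076_at, EREG, 210930_s_at of ERBB2, both of ERBB3 and 208231_at of NRG1) lie near the bottom of the scale, where a change would be understated.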
